A study of Mus musculus with 11 samples.

Results

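Chemerin, encoded by Rarres2, and its 3 receptors, Cmklr1, Gpr1 and Ccrl2, are 4 of the 55421 genes counted in 11 mouse hearts 3 days after surgery. They were selected on their readout, since Gpr1 was higher and Ccrl2 lower in infarcted hearts given an ADAM10 inhibitor than in infarcted hearts given solvent. The values of that contrast are therefore a description and carry no test. All mice were female C57BL/6J mice aged 8 weeks. In 4 DMSO mice (A105, A127, A128 and A129) the left anterior descending coronary artery was ligated, which causes a myocardial infarction (MI), and the solvent DMSO was given. In 4 A10i mice (A116, A117, A119 and A120) the artery was ligated and GI254023X, a hydroxamate that blocks ADAM10, a metalloprotease that sheds membrane proteins, was given at 100 mg/kg by osmotic minipump. In 3 sham mice (S1, S2 and S3) the artery was not ligated and DMSO was given. Infarcted hearts gave tissue of the infarct and its border zone, labelled as border zone, and sham hearts gave healthy tissue, so ligation and tissue site cannot be told apart.

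Chemerin is secreted as an inactive precursor, prochemerin, and proteases of coagulation, fibrinolysis and inflammation trim its C-terminus into active or inactive forms. Cmklr1, also called ChemR23, is its G protein-coupled signalling receptor on macrophages, plasmacytoid dendritic cells and NK cells, through which chemerin attracts these cells. Gpr1 is another signalling receptor for chemerin, whereas Ccrl2 binds chemerin without signalling and presents it to cells that carry Cmklr1. Rarres2 is also an adipokine, made by fat, liver, mesothelium and other tissues, and was first described as a gene that retinoids induce.

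All 4 genes lie on the minus strand of the mouse genome (mm10, the GRCm38 assembly), on 4 chromosomes. Rarres2 (ENSMUSG00000009281) spans chr6:48569696-48572789 and Cmklr1 (ENSMUSG00000042190) spans chr5:113612354-113650426. Gpr1 (ENSMUSG00000046856) spans chr1:63182691-63214543 and Ccrl2 (ENSMUSG00000043953) spans chr9:111054486-111057519. The annotated exons of Rarres2 share 892 bases with Lrrc61 on the plus strand, and the strand setting of the counting is not given in the sources used here, so reads in that stretch cannot be assigned with certainty. Lrrc61 had 141 to 304 counts per library, and it was lower after MI (log2 fold change of -0.61 ± 0.118 SE, edgeR adjusted p = 0.00153). No exon of another gene overlapped those of the receptors, and Platr12, an antisense transcript inside the span of Gpr1, had 0 counts in all 11 libraries.

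The promoters of the receptors are shown because the levels of these genes differed between the groups in different directions. Each sequence is the 250 bases before the most upstream RefSeq start of the gene (GRCm38.p6), 5′ to 3′, with matches to the NF-κB consensus in capitals. NF-κB is the transcription factor of inflammatory induction, and both strands were searched.
Cmklr1, chr5:113643604-113643853, minus strand: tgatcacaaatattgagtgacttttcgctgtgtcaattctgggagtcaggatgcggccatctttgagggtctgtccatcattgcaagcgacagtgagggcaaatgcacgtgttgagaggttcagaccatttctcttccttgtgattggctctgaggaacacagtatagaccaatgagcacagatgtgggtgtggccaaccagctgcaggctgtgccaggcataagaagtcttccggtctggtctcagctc
Gpr1, chr1:63214282-63214531, minus strand: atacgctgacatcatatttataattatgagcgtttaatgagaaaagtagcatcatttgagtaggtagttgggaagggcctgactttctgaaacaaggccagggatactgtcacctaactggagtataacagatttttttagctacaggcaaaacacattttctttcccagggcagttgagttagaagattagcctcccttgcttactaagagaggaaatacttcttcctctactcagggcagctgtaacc
Ccrl2, chr9:111057519-111057768, minus strand: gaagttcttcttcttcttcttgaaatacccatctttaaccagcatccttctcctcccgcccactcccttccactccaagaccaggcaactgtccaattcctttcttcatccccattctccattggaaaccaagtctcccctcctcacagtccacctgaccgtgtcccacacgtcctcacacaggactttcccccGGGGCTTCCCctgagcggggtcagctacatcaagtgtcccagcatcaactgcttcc
The window of Ccrl2 held 1 match, GGGGCTTCCC, starting 56 bases before the transcription start, and the windows of Cmklr1 and Gpr1 held 0. By the spans given above, the windows of Cmklr1 and Gpr1 lie inside the annotated gene, whereas that of Ccrl2 lies at its upstream end. The windows are therefore not alike, and their matches are not compared. Of the 27025 promoter windows of that length, 3.74% held at least 1 match. The retinoic acid response element of the direct repeat 5 type, by name DR5, was in 0.0888% of all windows and in none of these 3. A match is a description of the letters and not a binding site.

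Total counts ranged from 25538009 to 29511768 in sham, from 22651265 to 29004048 in DMSO and from 21702623 to 25695213 in A10i libraries. Levels within a gene are given below as normalized counts, which are counts scaled to the mean library size after TMM normalization. Levels between genes are given as RPKM, which divides the count by library size and by the length of the annotated exons. In bulk tissue, fewer cells of a type and less RNA per cell cannot be told apart.

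Rarres2, Cmklr1 and Ccrl2 were well measured and Gpr1 was near the limit of these libraries. Over the 11 hearts the mean level was 9.37 RPKM for Rarres2, 8.95 for Cmklr1, 6.43 for Ccrl2 and 0.122 for Gpr1. Rarres2 was above 75.4%, Cmklr1 above 74.4%, Ccrl2 above 66.9% and Gpr1 above 3.39% of the 17480 genes that passed the filter on low counts. With the lengths of all annotated exons, the order of Rarres2 and Cmklr1 differed between the groups. In sham hearts Rarres2, at 7.83 to 10.9 RPKM, was above Cmklr1 in every heart, where the range was 6.73 to 7.11 RPKM. In DMSO hearts Rarres2, at 7.28 to 9.08 RPKM, was below the range of Cmklr1 of 9.16 to 10.1 RPKM, and in A10i hearts both ranges overlapped. The length of Rarres2 used here, 2656 bases, is that of all annotated exons, against 731 bases of its coding transcript. Its level per length is therefore a low estimate. Its place above or below Cmklr1 depends on this length, and with coding transcripts Rarres2 would stand higher against Cmklr1 in every heart. The order within a group is therefore not read as a result. The lengths used for Cmklr1 (3408 bases), Gpr1 (2496 bases) and Ccrl2 (2598 bases) were closer to those of their coding transcripts (2882, 1940 and 2459 bases).

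**Figure D1:**
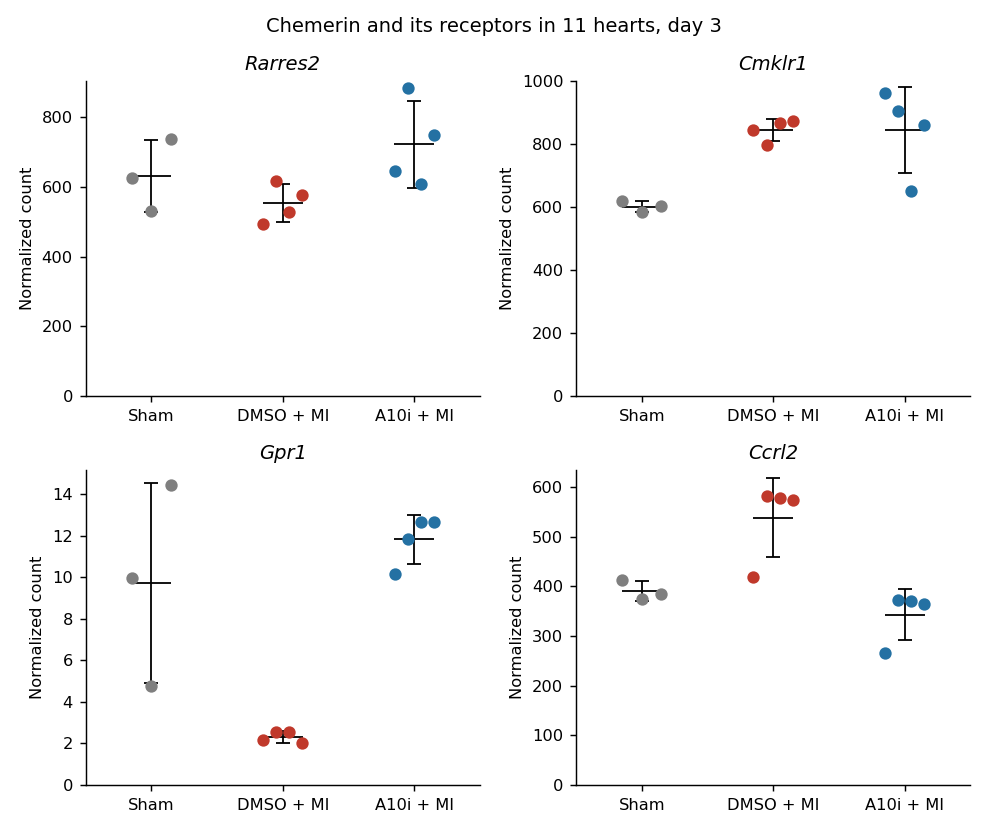
Normalized counts (y axes, linear from 0) of Rarres2, Cmklr1, Gpr1 and Ccrl2 in each heart, by group (x axes), with the mean and SD as lines. All 8 infarcted hearts lie above the 3 sham hearts for Cmklr1, and these groups did not overlap for 34.9% of all genes tested. The DMSO hearts have 2.01 to 2.57 normalized counts of Gpr1.

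Whether MI changed the genes was tested on the mean of both MI arms against sham in a fit of all 11 libraries, since that contrast gives equal weight to DMSO and A10i and does not use their difference, on which the genes were chosen. Cmklr1 rose after MI, Rarres2 and Ccrl2 did not pass the test, and Gpr1 was not read as tested. All 4 genes passed the filter, but Gpr1 did so only through sham and A10i, where it was higher. Across the 17480 genes tested, 14.9% were called higher and 11.5% lower at an adjusted p under 0.01, against 1 of the other 3 members, Cmklr1, called higher and 0 called lower. All genes tested had a median of 0.0024 on the log2 scale.

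Cmklr1, the main signalling receptor, had 619, 586 and 603 normalized counts in the sham hearts S1, S2 and S3. In the DMSO hearts A105, A127, A128 and A129 it had 846, 798, 868 and 875, and in the A10i hearts A116, A117, A119 and A120 it had 964, 905, 651 and 861. Each infarcted heart was above each sham heart, with A119 the closest to sham. Groups that do not overlap in this way were found for 34.9% of all genes tested. The log2 fold change of Cmklr1 was 0.49 ± 0.101 (SE, n = 8 and 3 hearts, edgeR quasi-likelihood test, adjusted p = 0.00229). With S1, S2 or S3 left out, it was 0.51, 0.47 or 0.49, and the adjusted p was 0.0106, 0.0164 or 0.014, each above the threshold.

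Within the arms, Cmklr1 rose by a like amount. The comparisons of DMSO and of A10i with sham share the 3 sham hearts, so they are set side by side. The log2 fold change of Cmklr1 was 0.49 ± 0.076 (SE) in DMSO (edgeR adjusted p = 0.00119, n = 4 and 3) and 0.49 ± 0.120 in A10i (edgeR adjusted p = 0.00956, n = 4 and 3). Called higher were 12.9% of the genes tested in DMSO and 13.7% in A10i, and called lower were 9.6% and 9.11%. The spread of Cmklr1 was larger in the A10i hearts, with a coefficient of variation of 16.1% against 4.12% in DMSO and 2.73% in sham. Between the arms the log2 difference of A10i minus DMSO was -0.00035. The call in DMSO was lost without S2 (adjusted p = 0.0111). The call in A10i was lost without S1, S2 or S3 (adjusted p = 0.0336, 0.0446 and 0.0392) and without A116, A117 or A120 (adjusted p = 0.0106, 0.0219 and 0.0267).

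Rarres2, the gene of chemerin itself, had 627, 532 and 738 normalized counts in sham hearts. It had 494, 616, 527 and 578 in A105, A127, A128 and A129, and 646, 884, 608 and 750 in A116, A117, A119 and A120. The 3 groups overlapped, and A117 held the highest level. The log2 fold change of both MI arms against sham was 0.0013 ± 0.125 (SE, edgeR adjusted p = 0.996). Against sham it was -0.19 ± 0.124 in DMSO (edgeR adjusted p = 0.24) and 0.20 ± 0.148 in A10i (edgeR adjusted p = 0.323). The log2 difference between A10i and DMSO was 0.39, and the lowest A10i heart, A119 at 608, was below the highest DMSO heart, A127 at 616.

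Gpr1, the second signalling receptor, was counted only 83 times in all libraries. It had 9, 5 and 14 counts in the sham hearts, 2, 3, 3 and 2 in the DMSO hearts A105, A127, A128 and A129, and 10, 12, 12 and 11 in the A10i hearts A116, A117, A119 and A120. The DMSO hearts were below all others, and the A10i hearts lay within the range of the sham hearts. The share of all genes with this order of hearts was not counted. The log2 fold change of both MI arms against sham was -0.85, which averages arms that lay apart and is given without a test, since Gpr1 passed the filter only through the groups in which it was higher. It ranged from -1.19 to -0.44 when each library was left out in turn.

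The difference of Gpr1 between A10i and DMSO is the value by which it was chosen. Pooled over libraries and scaled by their effective sizes, the rate of Gpr1 counts was 5.03 times as high in A10i as in DMSO (45 and 10 counts). The same ratio was 4.09 for sham over DMSO and 1.23 for A10i over sham. These ratios are given as a description. In the comparison of DMSO with sham, Gpr1 did not pass the filter, and its fitted log2 fold change without a filter was -2, whereas that of A10i against sham was 0.29, and -0.051 without S2 and 0.70 without S3.

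Ccrl2, the receptor that does not signal, had 413, 374 and 385 normalized counts in sham hearts. It had 419, 582, 577 and 573 in A105, A127, A128 and A129, and 266, 372, 369 and 363 in A116, A117, A119 and A120. All DMSO hearts were above the sham hearts, with A105 just above S1, and all A10i hearts were below the sham hearts, with A117 at 371.9 just below S2 at 373.8. How many of all genes order the hearts in this way was not counted, and Ccrl2 was chosen on the difference between the arms. The log2 fold change of both MI arms against sham was 0.14 ± 0.123 (SE, edgeR adjusted p = 0.388), an average of arms on opposite sides of sham. Given as a description, it was 0.46 in DMSO and -0.19 in A10i against sham, and -0.65 in A10i against DMSO. With each library left out in turn, the value of A10i against sham ranged from -0.23 to -0.08, the last without A116.

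**Figure D2:**
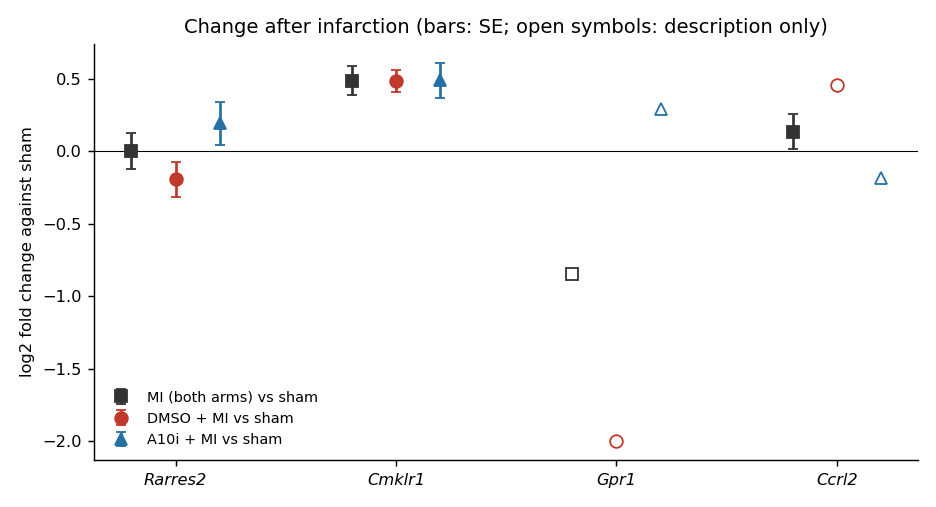
Fitted log2 fold changes against sham (y axis) of Rarres2, Cmklr1, Gpr1 and Ccrl2 (x axis) for both MI arms (squares), DMSO (circles) and A10i (triangles). Bars are SE and open symbols are values given without a test. Cmklr1 sits at 0.49 in every comparison, whereas the arms lie on opposite sides of 0 for Rarres2, Gpr1 and Ccrl2, and Gpr1 in A10i turns to -0.051 without S2.

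Between A10i and DMSO, Gpr1 and Ccrl2 were the members whose hearts did not overlap between the arms, as the rule that chose them implies, and groups that do not overlap were found for 8.12% of the 16792 genes tested. At an adjusted p under 0.01, edgeR called 0 of these genes (0%), with 2323 at an unadjusted p under 0.05, and DESeq2 called 231.

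The make-up of the receptors was compared as the share that each took of the summed RPKM of Cmklr1, Gpr1 and Ccrl2 in a heart. Cmklr1 held 52.7, 54.1 and 53.5% in the sham hearts, 60.5, 51.0, 53.3 and 53.7% in the DMSO hearts, and 72.7, 64.2, 56.5 and 63.5% in the A10i hearts, in the order given above. Ccrl2 held nearly all the rest, with 44.7 to 46.1% in sham, 39.3 to 48.8% in DMSO and 26.3 to 42.0% in A10i. Gpr1 held 0.603 to 1.75% in sham, 0.168 to 0.224% in DMSO and 1.04 to 1.5% in A10i. The level of Ccrl2 per length was 0.836 to 0.875 times that of Cmklr1 in sham, 0.650 to 0.957 times in DMSO and 0.361 to 0.744 times in A10i.

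The MI arms lay apart from each other in the share of Gpr1, whereas their ranges overlapped for Cmklr1 and Ccrl2. The 3 shares of a heart add up to the whole, so the choice of Gpr1 and Ccrl2 bears on the share of Cmklr1 too. The shares of both arms together are therefore set beside sham without a test. The share of Cmklr1 was 59.4 ± 7.24% in MI (SD, n = 8) and 53.4 ± 0.708% in sham (SD, n = 3), a difference of 5.98 percentage points. Its mean was 54.6% in DMSO hearts and 64.2% in A10i hearts, so this difference is not read as a result about Cmklr1 after MI. The difference was -5.54 points for Ccrl2 and -0.447 points for Gpr1. Ccrl2 held a mean of 45.4% in sham hearts, of 45.2% in DMSO hearts and of 34.5% in A10i hearts.

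**Figure D3:**
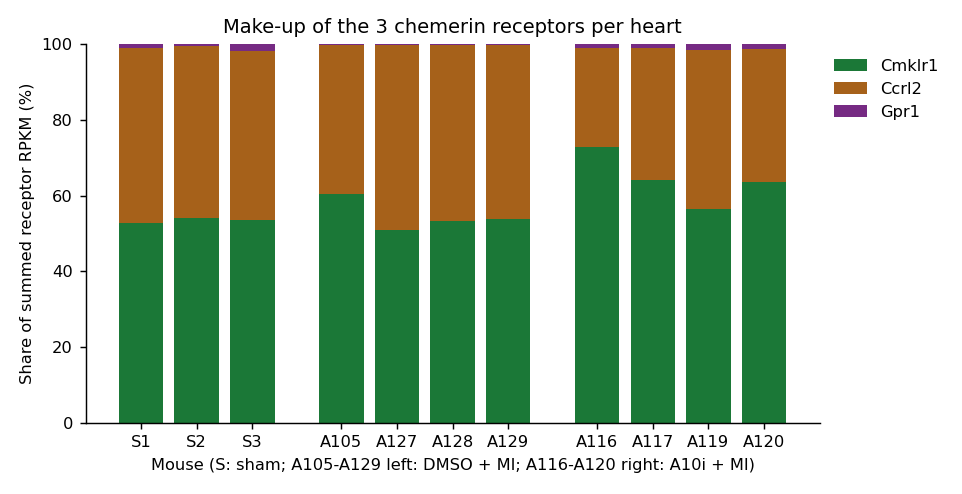
Share of the summed RPKM of the 3 receptors (y axis, percent, stacked from 0 to 100) held by Cmklr1, Ccrl2 and Gpr1 in each heart (x axis). Sham hearts are alike, with 52.7 to 54.1% of Cmklr1, and A116 has the largest share of Cmklr1, 72.7%.

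Of 18 listed proteases that process prochemerin, 10 passed the filter in the fit of both MI arms against sham. Of these, 6 were called higher, 0 lower and 4 not called, beside 14.9% called higher and 11.5% lower of all genes tested. The median log2 fold change was 1.06. Plat and Plau, the plasminogen activators, rose by a log2 fold change of 0.99 ± 0.136 (SE, edgeR adjusted p = 0.000241) and 1.61 ± 0.385 (edgeR adjusted p = 0.0065). The cathepsins Ctsl and Ctsk were also called, with log2 fold changes of 0.50 and 1.12. The coagulation factor F7 had 9, 8 and 9 counts in sham hearts and the neutrophil protease Prtn3 had 1, 3 and 1. Both counted among the 6, but they passed the filter only through infarcted hearts, where they were higher. Their log2 fold changes of 2.79 and 3.09 are therefore a description. Of the genes not called, the mast cell proteases Mcpt4, Tpsb2 and Cma1, named after their values were seen, had negative log2 fold changes, of -0.62, -0.18 and -0.015. Elane, F2 and Cpb2, which encode neutrophil elastase, prothrombin and a plasma carboxypeptidase, had 0 counts in all libraries. Ctsg, Plg and F12, which encode cathepsin G, plasminogen and factor XII, had 4, 4 and 6 counts over all libraries, so their transcripts were at or near the floor in this tissue, and protein from blood was not measured. Between A10i and DMSO, 0 of the 9 genes tested were called. edgeR called 0 of all 16792 genes there, so this says nothing about the list.

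**Figure D4:**
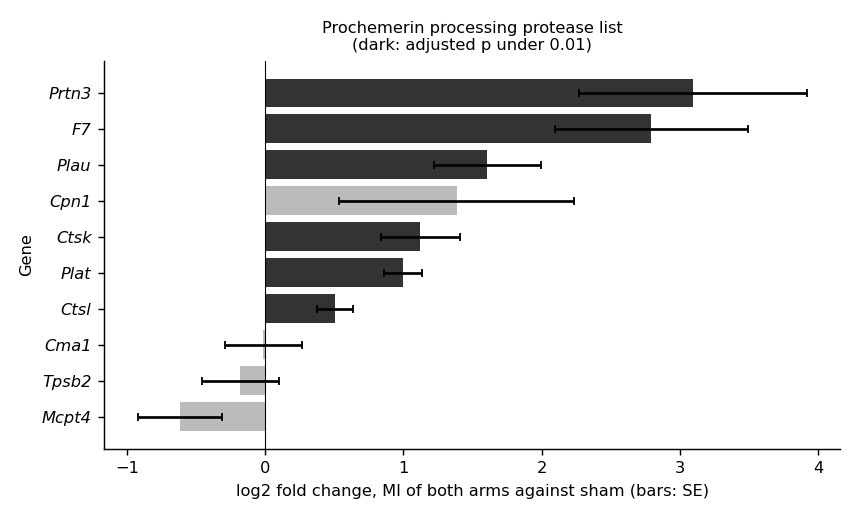
Log2 fold change of both MI arms against sham (x axis) of the 10 genes of the prochemerin protease list that passed the filter (y axis), with SE as lines and genes called in dark. The dark bars reach from 0.50 for Ctsl to 3.09 for Prtn3. F7 and Prtn3 passed the filter only through infarcted hearts, so their bars are a description.

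Genes of retinoic acid synthesis and signalling, the pathway after which Rarres2 was named, changed in both directions. Of 18 listed genes, 16 were tested after MI, of which 6 were called higher and 3 lower, beside 14.9% and 11.5% of all genes tested. The median log2 fold change of the list was -0.07. The 16 include Crabp2, named for its counts of 0, 3 and 2 in sham hearts. It passed the filter only through infarcted hearts, where it was higher, so the counts of called genes are a description. Aldh1a2, a retinoic acid synthase, rose by 2.91 ± 0.242 on the log2 scale (SE, edgeR adjusted p = 2.4e-05), as did Aldh1a3 (2.06) and the receptor Rara (0.78). The receptors Rarb and Rxra fell, with log2 fold changes of -0.61 and -0.37. Between the arms, 0 of 15 genes tested were called, which says nothing about the list, since edgeR called 0 of all 16792 genes.

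The steps after receptor binding were measured through a list of G proteins, receptor kinases, arrestins and RGS proteins, which end G protein signals. Of 14 genes tested after MI, 6 were called higher and 1 lower, beside 14.9% and 11.5% of all genes tested. The median log2 fold change of the list was 0.48. Gnai2 and Gnai3, which encode inhibitory G protein subunits, rose by log2 fold changes of 0.59 and 0.73. The receptor kinase Grk5 rose by 0.74 and Arrb2, an arrestin that ends receptor signals, by 1.03, whereas Rgs5 fell, with -0.82. Rgs1 had 3, 2 and 1 counts in sham hearts and passed the filter only through infarcted hearts. It is part of the counts and the median of this list, and its log2 fold change of 3.22 is therefore a description. Between the arms, 0 of these 14 genes were called, as were 0 of all 16792 genes, so the list cannot be judged by it.

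Like Ccrl2, the 4 listed atypical chemokine receptors bind chemokines without G protein signals. Ackr2 rose after MI, by 0.94 on the log2 scale (edgeR adjusted p = 0.00261). Ackr1 had 9, 5 and 3 counts in sham hearts and passed the filter only through infarcted hearts, where it was higher. Its log2 fold change, 1.92, is given as a description. Ackr3 and Ackr4 had -0.06 and -0.27 and did not pass the test. Of 18 listed neighbours of the members on their chromosomes, 15 were tested, of which 5 were called higher and 5 lower, Lrrc61 among the latter. Of all genes tested, 14.9% were called higher and 11.5% lower. Ccr1 and Ccr2, chemokine receptors of myeloid cells in the cluster beside Ccrl2, had log2 fold changes of 3.45 and 3.11, beside 0.14 for Ccrl2.

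Markers of other cells moved with the groups, and their part in the results was not tested. Marker sums are given as CPM, which are counts scaled by effective library size, without length. The sum of 10 neutrophil markers was 1.08 to 2.08 CPM in sham, 68.6 to 126 in DMSO and 13.7 to 48.0 in A10i. Of these markers 6 passed the filter, most of them only through infarcted hearts, where they were higher, so their calls are not given. Among all genes tested after MI, 14.9% were called higher and 11.5% lower. The sum of 10 macrophage markers, of which 7 were called higher, was 278 to 303 CPM in sham, 404 to 604 in DMSO and 520 to 831 in A10i. The summed level of 8 cardiomyocyte markers, 5 of them called lower, was 87140 to 88850 CPM in sham, 38900 to 57240 in DMSO and 49810 to 68650 in A10i. Of 8 endothelial markers 1 was called lower, and their sum was 1027 to 1074 CPM in sham, 866 to 1012 in DMSO and 999 to 1109 in A10i. NK cell markers, a cell type known for Cmklr1, were near the floor, with a sum of 0.133 to 1.78 CPM over all hearts.

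Among the hearts of 1 group, Cmklr1 and Rarres2 followed different markers. After the group means were removed from log2 CPM, Cmklr1 had a Pearson r of 0.889 (Spearman 0.864, n = 11 hearts) with the neutrophil sum. Without A119 and A116, the hearts farthest from the median of that sum, r was 0.733. Between the arms Cmklr1 did not follow this sum. The median sum was 102 CPM in DMSO and 27.7 in A10i, whereas the mean of Cmklr1 was 847 and 845 normalized counts. In sham hearts the sum was only 1.08 to 2.08 CPM. A119 held the lowest neutrophil sum of the infarcted hearts and also their lowest Cmklr1. With the macrophage sum, r was 0.592, and -0.045 without A116 and A119, so that relation rested on those hearts. With the monocyte sum r was 0.694, and with the cardiomyocyte sum it was -0.601. With the sum of dendritic and plasmacytoid markers r was 0.0036, and with the NK cell sum, which was near the floor, it was -0.005. Ccrl2 had an r of -0.356 with the neutrophil sum and of -0.152 with the macrophage sum.

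Rarres2 had an r of 0.841 (Spearman 0.818, n = 11 hearts) with the sum of 7 mesothelial and epicardial markers, and 0.783 without A117 and A116. A117 held the highest Rarres2, the highest mesothelial sum, 125.5 CPM, and the highest adipocyte sum, 28.9 CPM. The mesothelial sum was 27.2 to 43.6 CPM in sham, 44.7 to 71.1 in DMSO and 58.7 to 125.5 in A10i, with 4 of 7 genes called higher after MI. Of 6 adipocyte markers tested, 0 were called. Of all genes tested after MI, 14.9% were called higher and 11.5% lower. With the adipocyte sum, r was 0.697, and 0.392 without A117 and S3. These relations were picked after their values were seen among 12 marker lists, and they share libraries and depth.

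**Figure D5:**
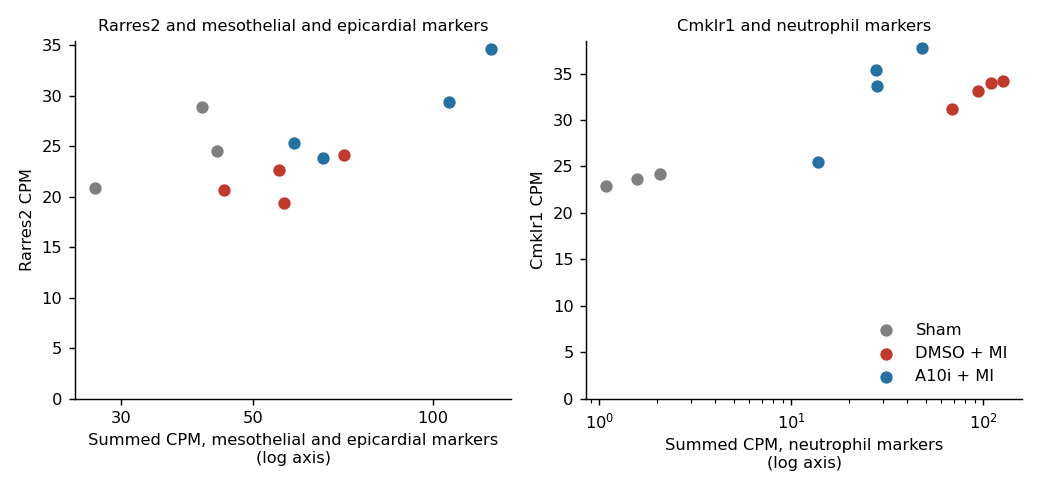
Left, Rarres2 (y axis, CPM from 0) against the summed CPM of mesothelial and epicardial markers (x axis, log scale), and right, Cmklr1 against the sum of neutrophil markers (log scale). Points are hearts, coloured by group. Within the groups both genes are higher where the markers are higher, with r of 0.841 and 0.889. Between DMSO and A10i, the neutrophil sum differs and Cmklr1 does not follow it.

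The genes with the most similar pattern over the 11 libraries were taken for each member, as a description. For Rarres2 they were Muc16 (r = 0.903, and 0.824 within groups), a mucin of mesothelium, Cd2ap (0.883 and 0.904), an adaptor of the actin skeleton, and Efemp1 (0.863 and 0.869), a matrix protein. Muc16 had a mean of 184 normalized counts in sham, 108 in DMSO and 268 in A10i. For Cmklr1 they were the kinase Csnk1g3 (0.957), the endothelin receptor Ednrb (0.953) and the phosphatase Ptprj (0.952), with a within-group r of 0.904 for Csnk1g3 and 0.87 for Ptprj.

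For Gpr1 they were the sialyltransferase St3gal4 (0.95), Stra6 (0.95), which encodes the membrane receptor that takes up retinol, and Asb7 (0.936). Within groups these r fell to 0.713, 0.561 and 0.755, and Gpr1 has few counts. Stra6 had 18, 10 and 16 counts in sham hearts, 3, 4, 3 and 4 in DMSO hearts and 17, 18, 13 and 21 in A10i hearts. That it was lower in the DMSO hearts follows from its choice for likeness to Gpr1. Like Gpr1, Stra6 passed the filter only through sham and A10i hearts. Its log2 fold change of both MI arms against sham, -0.96, is therefore given without a test. For Ccrl2 they were the nuclear receptor Rorb (0.896), Rpf1 (0.892) and Hps4 (0.88). Their r within groups was 0.584, 0.703 and 0.892.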

How the data were processed

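RNA of 11 mouse hearts was enriched for poly(A), made into strand-specific libraries and sequenced as 100 bp pairs. Per the submitters' processing notes, bcl2fastq 2.20.0, GSNAP and featureCounts 2.0.1 were used with mm10, and the authors counted on Ensembl genes. The deposited values are raw counts for 55513 rows, of which 92 spike-in rows (397 counts in all) were left out. GENCODE and RefSeq tables for GRCm38 gave names, loci and promoters, with names for 55154 rows and promoters for 3 of 4 members.

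Groups came from the labels. Counts were tested with edgeR 4.0.16 (filterByExpr, TMM, robust quasi-likelihood test, two-sided, Benjamini-Hochberg, threshold 0.01) in R 4.3.3, tested first on simulated data, with DESeq2 1.42.0 as an alternative. The MI contrast used all 11 libraries, and pairwise comparisons used their own groups. Replicates are mice with separate identifiers in the labels. Marker sums are CPM, and correlations used log2 CPM with a prior count of 2 for the most similar genes. The permutation test planned for the receptor shares (scipy 1.17.1, Python 3.11.15) is not given, since the spread over both MI arms contains the difference on which the genes were chosen. Other scalings, filters, fits and the omission of each library were tried.

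The members and the lists were chosen with earlier results of these data known. Named genes were the members, up to 6 genes per list with the smallest adjusted p after MI or near 0 counts, and the 3 genes most correlated with each member. Other members of the marker lists are given as counts and sums. A listed gene that the rule names is not reported here.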

Additional observations from a re-analysis of the deposited data

Results flagged for a closer look

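Of 14 sets of 4 infarcted hearts examined for a heart far from the other 3, 2 held such a heart, both for Ccrl2, and chance flags about 1 in 20. In the DMSO group, A105 had 419 normalized counts of Ccrl2 against 573 to 582 in the other hearts. In the A10i group, A116 had 266 against 363 to 372. A105 had the lowest sum of endothelial markers (866 CPM) and of fibroblast markers (925 CPM) among the infarcted hearts, and A116 the highest sum of fibroblast (4798 CPM) and macrophage markers (831 CPM). The part of these differences in Ccrl2 was not tested.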

How the results depend on the processing

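Of 235 refits of a member's fold change or a receptor share, 215 kept direction and side of the threshold, or moved by less than the spread between replicates. Library size alone, without TMM, raised the median log2 fold change of all genes by 0.199 for both MI arms, 0.208 for DMSO and 0.181 for A10i against sham. Under it Rarres2 in DMSO against sham turned to 0.018, Ccrl2 moved to 0.67 in DMSO and to -0.0046 in A10i against sham, and Cmklr1 remained above sham by more than that shift (0.69 for both arms). With relative log expression factors, Cmklr1 in A10i against sham was 0.49 with an adjusted p of 0.0103, above the threshold.

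With each library left out in turn, the log2 fold change of both MI arms against sham ranged from -0.11 to 0.13 for Rarres2, which crossed 0, from 0.46 to 0.54 for Cmklr1, from -1.19 to -0.44 for Gpr1 and from 0.11 to 0.19 for Ccrl2. In A10i against sham, Gpr1 ranged from -0.051 (without S2) to 0.70 (without S3) and Ccrl2 from -0.23 to -0.08 (without A116). That of Cmklr1 ranged from 0.46 to 0.52 in DMSO and from 0.43 to 0.60 in A10i against sham, the highest without A119. Gene counts ranged from 2222 to 4899 for both MI arms, from 1525 to 4051 for DMSO and from 1620 to 4365 for A10i against sham, with the low values without S1, S2 or S3, and from 0 to 1 for A10i against DMSO, 1 without A105 or A127. At a threshold of 0.05, 7519, 6832, 6671 and 12 genes were called in these comparisons. Between A10i and DMSO, DESeq2 called 231, no filter 43 and the fit of all 11 libraries 11 genes. The length of the coding transcript, chosen after seeing the data, and CPM left the difference of each receptor share between MI and sham in the same direction. With each library left out, that of Gpr1 ranged from -0.73 points without S2 to -0.157 points without S3.

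Gpr1 had at most 14 counts in a library, and its coefficient of variation among sham hearts was 49.7%, so its differences are imprecise.

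No paired analysis was possible because the mice carry individual identifiers that the groups do not share.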
